A study of Mus musculus with 10 samples.

Results

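The genes described here encode the enzymes that write, copy and remove DNA methylation. They are *Dnmt1*, *Dnmt3a*, *Dnmt3b*, *Dnmt3l*, *Uhrf1*, *Tet1*, *Tet2*, *Tet3* and *Tdg*, which were taken by symbol as a list of 9 genes out of the 51467 genes in the count table. All 9 were found once in the table and all 9 passed the filter on low counts. The cells were mouse embryonic stem cells (ESCs) grown with serum, LIF and the 2i inhibitors PD0325901 and CHIR99021. WT cells (V6.5, 3 libraries) were compared with DGCR8 KO cells (3 libraries) and DDX6 KO cells (2 clones with 2 libraries each, made from the WT line with CRISPR and a single guide). The DGCR8 KO cells were an existing line of the same laboratory, and the labels do not say whether its 3 libraries are separate cultures. All groups shared the medium and inhibitors. DGCR8 is the RNA-binding partner of DROSHA in the first cut of canonical miRNA precursors, and DDX6 is an RNA helicase of P-bodies that acts in miRNA-guided repression. Expression was measured with QuantSeq, which sequences the 3′ end of polyadenylated transcripts.

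In mammals, methyl groups are placed on cytosine of CpG dinucleotides by DNA methyltransferases. DNMT3A and DNMT3B methylate unmodified DNA, with DNMT3L as a cofactor that has no catalytic activity of its own. DNMT1 copies the pattern after each round of replication and is brought to hemimethylated sites by UHRF1. TET1, TET2 and TET3 oxidize 5-methylcytosine, and TDG excises the more oxidized bases so that repair restores cytosine. ESCs kept in 2i are known for low DNA methylation, and *Dnmt3b* is also a marker of the formative state that follows naive pluripotency. DNA methylation itself was not measured in these libraries.

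Library totals ran from 2131156 to 4745083 counts, and 3 counts corresponded to 0.632 to 1.41 CPM, counts relative to the library total. The levels below are CPM on library totals adjusted by TMM, a scaling factor per library, so they differ slightly from that plain ratio. *Dgcr8* was at 50.4, 52.1 and 65.8 CPM in WT and at 10.1, 9.16 and 15.5 CPM in DGCR8 KO. *Ddx6* was at 505, 525 and 586 CPM in WT, at 149 and 135 CPM in DDX6 KO clone 1 and at 39.1 and 25.8 CPM in clone 2. Both targeted genes were thus lowest in the libraries that carry their name, with more *Ddx6* RNA left in clone 1. The study reports that DDX6 protein was absent from both clones by Western blot. The reads come from transcript ends and need not cover the edited sequence, so they check the labels only through the RNA level. The 7 ESC markers (*Pou5f1*, *Sox2*, *Nanog*, *Klf4*, *Esrrb*, *Zfp42*, *Dppa5a*) summed to between 2959 and 3451 CPM in every library, although single markers moved. In DGCR8 KO *Sox2* rose by 0.50 and *Nanog*, *Klf4* and *Zfp42* fell by 0.33, 0.46 and 0.27 on the log2 scale. In DDX6 KO *Nanog* rose by 0.62. *Nanog* is on chromosome 6, whose tested genes had a median of 0.59 in DDX6 KO. *Zfp42* is on chromosome 8, whose tested genes had a median of -0.45 in DGCR8 KO. The part of these chromosome-wide shifts in the marker changes was not tested. The 5 primitive endoderm markers summed to at most 5.13 CPM and the 6 fibroblast markers to at most 9.52 CPM. The 4 trophoblast markers summed to 6.79 to 19.7 CPM, most of it *Eomes*, with *Elf5* at 0 in every library.

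Because DGCR8 KO cells lack canonical miRNAs, the 3′ UTRs of the 9 genes were searched for matches to 2 miRNA families. The first is the ESC cell cycle (ESCC) family of the miR-290 and miR-302 clusters, the main miRNA family of ESCs. The second is miR-29, known in other cells as a regulator of DNMT3 and TET transcripts. The level of the miRNAs was not measured here. The mature sequences below are from RefSeq (GRCm38), all 8 family members looked up were matched by name, and capitals mark the seed, bases 2 to 8.
miR-294-3p: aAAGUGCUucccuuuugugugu
miR-302b-3p: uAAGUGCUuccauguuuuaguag
miR-29a-3p: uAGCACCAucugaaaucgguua
All ESCC members searched share one seed, and the miR-29 members share another. A match was a run of 7 bases in the sense strand of the 3′ UTR, either opposite the whole seed or opposite all of it but the last base and followed by A. For ESCC the first form is AGCACTT. Its second form is GCACTTA. For miR-29 the first form is TGGTGCT. Its second form is GGTGCTA. A run holding both forms was counted once, as an 8-base match.

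ESCC matches were present in 3 of the 9 genes, the 3 *Tet* genes, compared with 20.0% of the 10962 tested genes with an annotated 3′ UTR. *Tet3* had 3 matches in 5669 bases, *Tet2* had 1 in 3058 bases and *Tet1* had 2 in 7955 bases. Among tested genes with a 3′ UTR 0.8 to 1.25 times as long, 63.6% had a match for the length of *Tet3*, 39.5% for *Tet2* and 66.2% for *Tet1*, so matches are common at these lengths. The 6 ESCC matches are shown with their flanks because they are the only ones in the 9 genes. All lie in 3′ UTR exons on the minus strand of GRCm38, and capitals mark the match.
Tet3, chr6:83367835-83367858: tcttccccAGCACTTtgaagaaac
Tet3, chr6:83366203-83366226: tttttttaAGCACTTttgcctaga
Tet3, chr6:83363401-83363424: atctacgcAGCACTTggtttatct
Tet2, chr3:133465906-133465929: cttagaaaAGCACTTtgcctacct
Tet1, chr10:62811877-62811900: ttttaaaaAGCACTTtctactttt
Tet1, chr10:62805021-62805044: atagttaaAGCACTTcatgacatt

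MiR-29 matches were found in 6 of the 9 genes against 18.2% of tested genes. *Tet3* had 10, *Tet1* had 8, *Dnmt3a* had 6, *Tet2* had 5, *Tdg* had 3 and *Dnmt3b* had 2. In 3′ UTRs of like length, 52.4% of genes had at least 1 match for *Tet3*, 59.6% for *Tet1*, 59.5% for *Dnmt3a*, 34.4% for *Tet2*, 25.7% for *Tdg* and 16.8% for *Dnmt3b*. The pair of 8-base matches in *Dnmt3a* and both matches in *Dnmt3b* are shown, since these de novo enzymes changed in opposite directions (values below) and both hold the site. They are on the plus strand.
Dnmt3a, chr12:3911397-3911420: gaggtagcTGGTGCTAgcaccagg
Dnmt3a, chr12:3911466-3911489: tcccaagcTGGTGCTAattcctct
Dnmt3b, chr2:153686619-153686642: gcccggcaTGGTGCTcatgttctc
Dnmt3b, chr2:153687489-153687512: taattacaGGTGCTAttttataga
*Dnmt1*, *Dnmt3l* and *Uhrf1*, whose 3′ UTRs are 312, 273 and 984 bases long, held neither motif. A match describes letters in the annotated 3′ UTR and does not show that the site is bound.

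**Figure D1:**
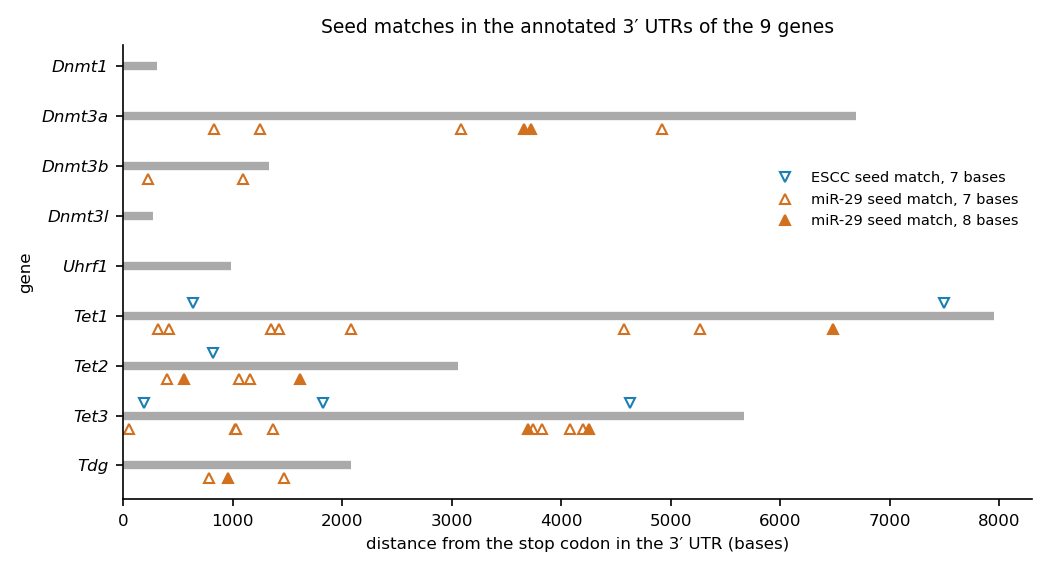
Seed matches along the 3′ UTRs of the 9 genes. Each grey bar runs from the stop codon to the annotated transcript end, in bases, with ESCC matches above it and miR-29 matches below (open, 7 bases; filled, 8 bases). The 6 ESCC matches lie in *Tet1*, *Tet2* and *Tet3*, and *Dnmt1*, *Dnmt3l* and *Uhrf1* have no match.

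Across genotypes, the clearest differences were a rise of *Tet3* and *Tet2* in DDX6 KO and a fall of *Dnmt3b* in both knockouts. In DGCR8 KO they also included a fall of *Uhrf1* and a rise of *Tet1*. A gene passed the test where its adjusted p (limma-voom, Benjamini-Hochberg over all 11683 genes tested) was below 0.05. In DGCR8 KO against WT, 4 of the 9 genes passed (2 higher, 2 lower), compared with 36.3% of all genes tested (19.9% higher, 16.5% lower), and 1 was beyond 2-fold (14.7% of all). In DDX6 KO against WT, 6 of the 9 passed (3 higher, 3 lower), compared with 34.5% of all genes tested (17.9% higher, 16.6% lower), and 2 were beyond 2-fold (11.2% of all). With the replicate number as a block, the counts were 6 of 9 in DGCR8 KO (40.7% of all), 6 of 9 in DDX6 KO (31.9%) and 5 of 9 between the knockouts (45.8%). The median log2 fold change of the 9 genes was -0.21 in DGCR8 KO and -0.26 in DDX6 KO, beside 0.00 and 0.02 over all genes tested. The libraries did not overlap between DGCR8 KO and WT for 5 of the 9 genes (44.8% of all genes tested) and between DDX6 KO and WT for 4 of the 9 (39.9%). Both comparisons use the same WT libraries. In bulk RNA a lower level in every cell and fewer expressing cells cannot be told apart.

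**Figure D2:**
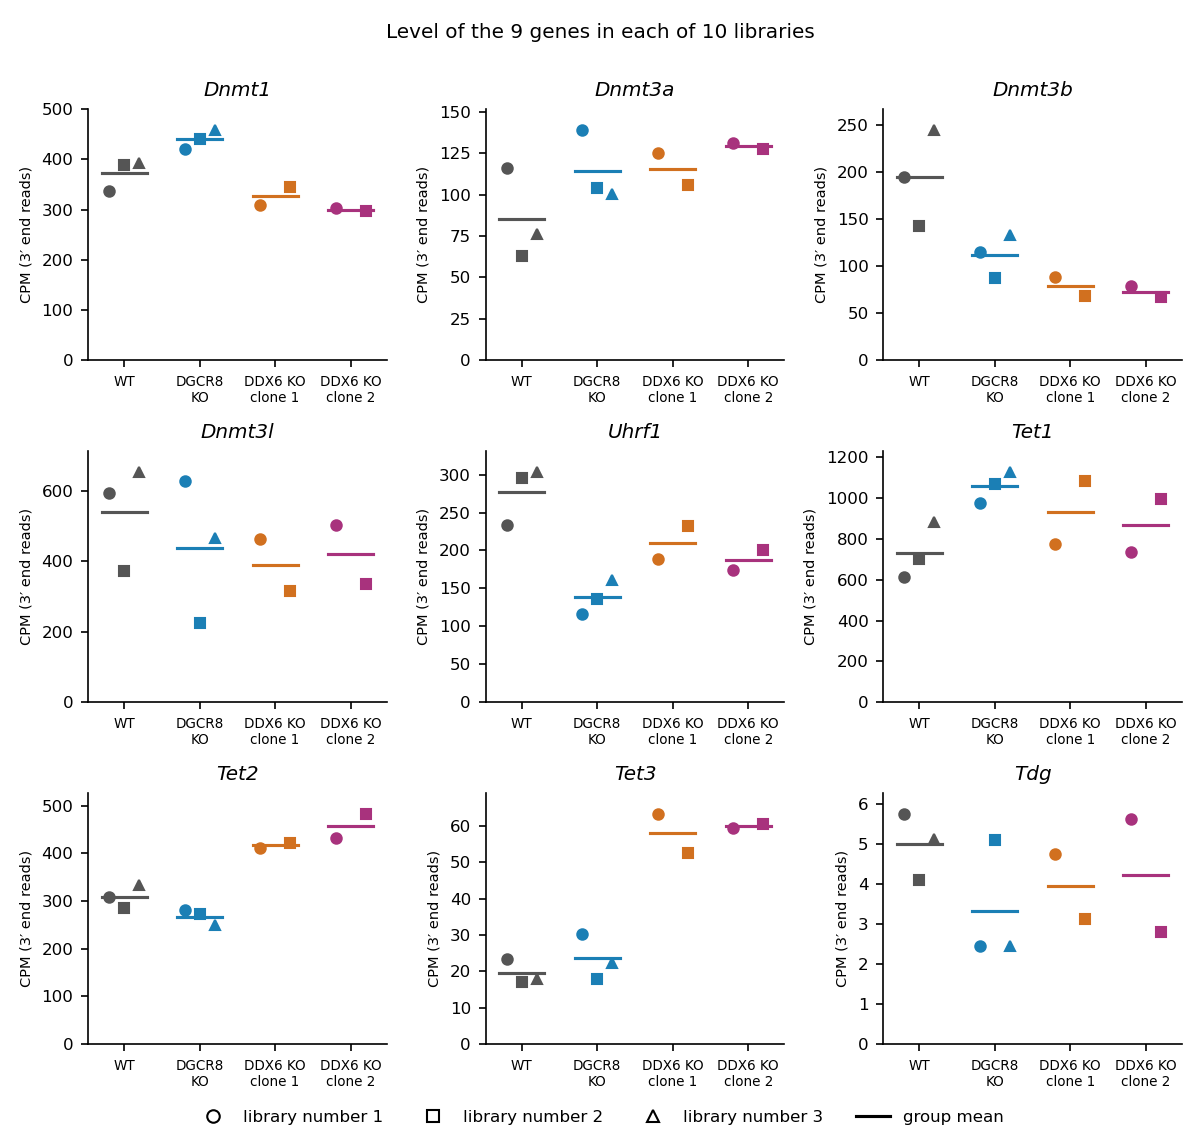
CPM of each gene in each of the 10 libraries (y axis, from 0), by group, with marker shape for the library number and a line for the group mean. *Tet3* was at 52.5 to 63.4 CPM in the 4 DDX6 KO libraries and at 17.0 to 30.3 CPM in the other libraries, and *Dnmt3b* was highest in WT.

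Of the maintenance enzymes, *Dnmt1* (ENSMUSG00000004099, chr9:20907209-20959888, minus strand, GRCm38) was at 338, 388 and 393 CPM in WT and at 421, 441 and 459 CPM in DGCR8 KO. It was at 309 and 345 CPM in DDX6 KO clone 1 and at 304 and 296 CPM in clone 2. DGCR8 KO libraries were all above WT, and 3 of the 4 DDX6 KO libraries were below it. The log2 fold change was 0.24 ± 0.10 (SE) in DGCR8 KO (adjusted p = 0.0686, limma-voom). With the library number as a block, which pairs the WT and DGCR8 KO libraries, the value was 0.24 ± 0.09 (adjusted p = 0.0317, limma-voom), so this call rests on the pairing. In DDX6 KO *Dnmt1* fell by 0.26 ± 0.09 on the log2 scale (adjusted p = 0.0399, limma-voom). That call did not hold under 11 of 22 alternative settings, among them the fits in which the other clone's libraries were left out, and its adjusted p ran from 0.0242 to 0.266 over them. The difference between the knockouts was firmer, with *Dnmt1* higher in DGCR8 KO by 0.49 ± 0.09 (adjusted p = 3.22e-04, limma-voom) and no overlap between their libraries.

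*Uhrf1* (ENSMUSG00000001228, chr17:56303321-56323486, plus strand) was at 233, 295 and 304 CPM in WT. It was at 116, 136 and 162 CPM in DGCR8 KO, at 189 and 232 CPM in DDX6 KO clone 1 and at 174 and 201 CPM in clone 2. Every knockout library was below every WT library, although the higher library of DDX6 KO clone 1 came close to the lowest WT library, and every DGCR8 KO library was below every DDX6 KO library. *Uhrf1* fell by 1.03 ± 0.14 on the log2 scale in DGCR8 KO, a 2.04-fold decrease (adjusted p = 1.67e-05, limma-voom). In DDX6 KO it fell by 0.49 ± 0.13 (adjusted p = 0.00563, limma-voom), and between the knockouts (DGCR8 KO minus DDX6 KO) the value was -0.54 ± 0.13 (adjusted p = 0.00329, limma-voom). The library number as a block gave a fall of 0.39 ± 0.10 in DDX6 KO (adjusted p = 0.00395, limma-voom). Between the knockouts it gave -0.62 ± 0.10 (adjusted p = 2.43e-05, limma-voom). With clone 1 as the only DDX6 KO libraries, *Uhrf1* did not pass (adjusted p = 0.0775, limma-voom). *Dnmt1* and its recruiting partner therefore differed in opposite directions between the knockouts.

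*Uhrf1* and *Dnmt1* are expressed with DNA replication, so 18 genes of DNA replication were read beside them. In DGCR8 KO 10 of the 18 fell and 3 rose, beside 16.5% and 19.9% of all genes tested. Their median log2 fold change was -0.43, beside 0.00 over all genes tested. In DDX6 KO 10 of the 18 fell and 1 rose, beside 16.6% and 17.9% of all genes tested. Their median there was -0.36, beside 0.02 over all genes tested. The summed level of the list was 6419 to 7096 CPM in WT, 5213 to 5748 CPM in DGCR8 KO and 4991 to 5164 CPM in DDX6 KO. *Mcm5*, a subunit of the replicative helicase, fell by 1.21 in DGCR8 KO and by 0.76 in DDX6 KO on the log2 scale. *Mcm5*, *Gins2* and *Cdt1*, which fell by 0.70 in DGCR8 KO, are on chromosome 8, whose tested genes had a median of -0.45 there. *Rrm2*, a ribonucleotide reductase subunit, fell by 1.27 in DGCR8 KO and by 0.67 in DDX6 KO. *Gins2*, a replication fork component, fell by 1.21 in DGCR8 KO, and its value in DDX6 KO was 0.14 (not past the test). *Mcm3* and *Mcm7* fell by 0.81 and 0.83 in DDX6 KO, while *Mcm7* rose by 0.29 in DGCR8 KO (adjusted p = 0.0481, limma-voom). The part of these genes in the *Uhrf1* and *Dnmt1* results was not tested.

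The de novo enzymes moved apart. *Dnmt3b* (ENSMUSG00000027478, chr2:153649450-153687730, plus strand) was at 195, 143 and 245 CPM in WT and at 115, 87.2 and 133 CPM in DGCR8 KO. It was at 88.3 and 68.5 CPM in DDX6 KO clone 1 and at 78.5 and 66.9 CPM in clone 2. All 7 knockout libraries were below the lowest WT library. *Dnmt3b* fell by 0.80 ± 0.18 on the log2 scale in DGCR8 KO (adjusted p = 0.00172, limma-voom). In DDX6 KO it fell by 1.35 ± 0.17, a 2.56-fold decrease (adjusted p = 1.32e-05, limma-voom), and the values of clone 1 and clone 2 against WT were -1.30 and -1.41. *Dnmt3b* was higher in DGCR8 KO than in DDX6 KO by 0.55 ± 0.18 (adjusted p = 0.0189, limma-voom). That difference was lost under 8 of 22 alternative settings, including either clone alone and the omission of DGCR8 KO replicate 1 or 3. No DDX6 KO library is numbered 3, and WT replicate 3 was the highest WT library. The library number as a block gave smaller values. *Dnmt3b* then fell by 1.18 ± 0.11 in DDX6 KO (adjusted p = 1.26e-08, limma-voom), and the knockouts differed by 0.39 ± 0.11 (adjusted p = 0.00513, limma-voom). A total of 11.8% of 50-base windows of the *Dnmt3b* transcript occurred in *Dnmt3c*, but none in its last 400 bases, and *Dnmt3c* had 1 count over all libraries.

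Markers of the formative and primed epiblast were read beside *Dnmt3b*. The 5 genes (*Fgf5*, *Otx2*, *Pou3f1*, *Lef1*, *Cdh2*) summed to 61.3 to 71.1 CPM in WT, 81.1 to 90.6 CPM in DGCR8 KO and 17.0 to 25.0 CPM in DDX6 KO. *Fgf5* was at 0 in all 10 libraries. Of the 4 tested, *Cdh2* rose by 1.75 and *Pou3f1* fell by 1.15 in DGCR8 KO. *Otx2* and *Lef1* had values of 0.38 and 0.39 there that did not pass. In DDX6 KO *Otx2*, a transcription factor of the formative state, fell by 2.22 and *Lef1*, a Wnt effector, fell by 4.89 and was at 0 in 1 library. *Pou3f1* and *Cdh2* did not pass in DDX6 KO, with values of -0.33 and 0.18. The part of these markers in the *Dnmt3b* result was not tested.

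*Dnmt3a* (ENSMUSG00000020661, chr12:3807030-3914443, plus strand) was at 116, 62.7 and 76.5 CPM in WT and at 139, 104 and 100.2 CPM in DGCR8 KO. It was at 125 and 106 CPM in DDX6 KO clone 1 and at 131 and 127 CPM in clone 2. WT replicate 1 lay among the knockout libraries, so the groups overlapped, while the other 2 WT libraries were below every knockout library. *Dnmt3a* rose by 0.50 ± 0.18 on the log2 scale in DGCR8 KO (adjusted p = 0.0337, limma-voom). The call was lost with edgeR, DESeq2, limma-trend, no filter on low counts, and without WT replicate 2, WT replicate 3 or DGCR8 KO replicate 1, with adjusted p from 7.78e-04 to 0.201 over all alternatives. In DDX6 KO *Dnmt3a* rose by 0.60 ± 0.17 (adjusted p = 0.00898, limma-voom), and this call was lost without WT replicate 2, without WT replicate 3 and with clone 1 alone. The knockouts differed by -0.10, with a 95% interval from -0.44 to 0.24.

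The balance of the catalytic de novo enzymes shifted with these changes. QuantSeq gives reads from transcript ends, so reads were compared without a length correction. *Dnmt3a* made up 30.6% ± 6.81 (SD, n = 3) of the summed CPM of *Dnmt3a* and *Dnmt3b* in WT, 50.7% ± 6.65 (n = 3) in DGCR8 KO and 61.9% ± 2.94 (n = 4) in DDX6 KO. The highest WT library was at 37.4%, the DGCR8 KO libraries ran from 43.0% to 54.7% and the DDX6 KO libraries from 58.7% to 65.6%, so the 3 genotypes did not overlap. This share combines the values given above and was not tested on its own.

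*Dnmt3l* (ENSMUSG00000000730, chr10:78042287-78063622, plus strand), the cofactor, was at 594, 373 and 654 CPM in WT and at 626, 225 and 466 CPM in DGCR8 KO. It was at 462 and 317 CPM in DDX6 KO clone 1 and at 504 and 334 CPM in clone 2. All groups overlapped. The log2 fold change was -0.39 ± 0.27 in DGCR8 KO (adjusted p = 0.283, limma-voom) and -0.42 ± 0.25 in DDX6 KO (adjusted p = 0.210, limma-voom), with 95% intervals from -0.95 to 0.18 and from -0.95 to 0.11. With the library number as a block, *Dnmt3l* fell by 0.36 ± 0.12 in DGCR8 KO (adjusted p = 0.0184, limma-voom).

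For *Dnmt3l* the library numbered 2 was the lowest in each of the 4 groups. The same held for *Dnmt3b*, and for 540 of all genes tested (4.62%). *Tet1* and *Uhrf1* were instead lowest in the library numbered 1 in each of the 4 groups, and the share of all genes with that pattern was not counted. The share of spike-in reads also differed, at 1.89% to 2.36% in the libraries numbered 2 and 1.10% to 1.78% in the others. Without the libraries numbered 2, a setting added after the data were seen, *Dnmt3l* fell in DDX6 KO with an adjusted p of 0.0403 (limma-voom), while *Dnmt3a* lost its call in DGCR8 KO. What the number stands for is not given by the labels.

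**Figure D3:**
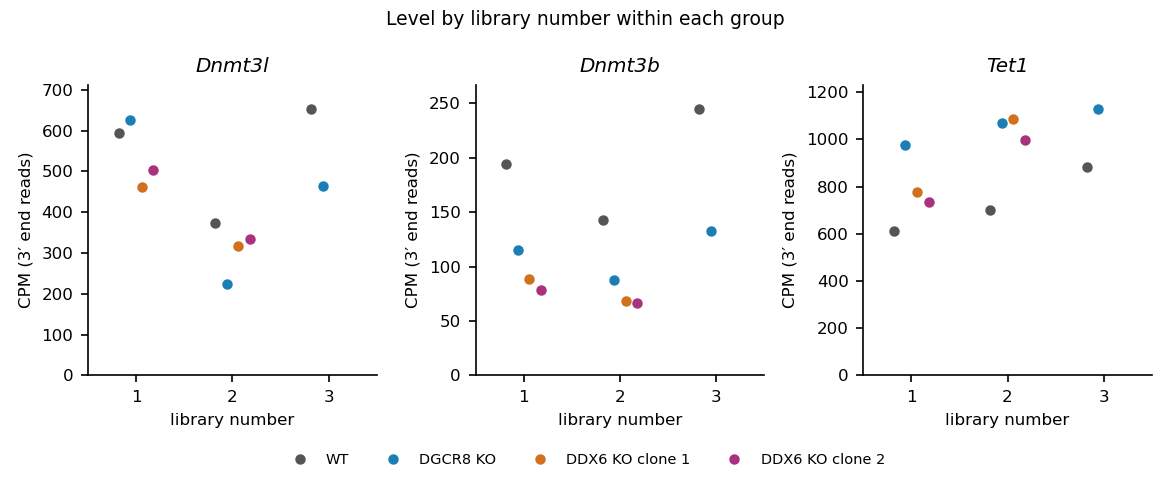
CPM of *Dnmt3l*, *Dnmt3b* and *Tet1* (y axis, from 0) by library number (x axis), with 1 point per library colored by group. For *Dnmt3l* and *Dnmt3b* the library numbered 2 is the lowest of its group in all 4 groups.

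Of the demethylation enzymes, *Tet3* changed most. *Tet3* (ENSMUSG00000034832, chr6:83362373-83456392, minus strand) was at 23.5, 17.0 and 17.8 CPM in WT and at 30.3, 17.98 and 22.4 CPM in DGCR8 KO. It was at 63.4 and 52.5 CPM in DDX6 KO clone 1 and at 59.5 and 60.5 CPM in clone 2. All DDX6 KO libraries were above all others, whereas DGCR8 KO and WT overlapped. *Tet3* rose by 1.64 ± 0.18 on the log2 scale in DDX6 KO, a 3.11-fold increase (adjusted p = 3.16e-06, limma-voom), with 1.61 in clone 1 and 1.67 in clone 2. In DGCR8 KO the value was 0.31 ± 0.22 (adjusted p = 0.289, limma-voom), with a 95% interval from -0.15 to 0.76. Between the knockouts (DGCR8 KO minus DDX6 KO) the value was -1.33 ± 0.18 (adjusted p = 9.15e-06, limma-voom).

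*Tet3* is on chromosome 6, and genes of that chromosome were shifted as a whole in DDX6 KO. The 561 tested genes of chromosome 6 had a median log2 fold change of 0.59 in DDX6 KO against WT, and of 0.07 in DGCR8 KO. By library, the median was 0.65 and 0.62 in clone 1 and 0.54 and 0.52 in clone 2. *Tet3* exceeded the chromosome median by 1.05 and lay above 89.8% of the chromosome's genes. The chromosomes of the other 8 genes had medians from -0.02 to 0.09 in DDX6 KO. The part of the chromosome-wide shift in the *Tet3* result was not tested beyond this subtraction.

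*Tet2* (ENSMUSG00000040943, chr3:133463679-133544390, minus strand) was at 309, 286 and 333 CPM in WT and at 281, 272 and 249 CPM in DGCR8 KO. It was at 410 and 423 CPM in DDX6 KO clone 1 and at 432 and 483 CPM in clone 2. The 3 genotypes did not overlap, in the order DDX6 KO, WT, DGCR8 KO. *Tet2* rose by 0.50 ± 0.10 on the log2 scale in DDX6 KO (adjusted p = 5.95e-04, limma-voom). In DGCR8 KO its value was -0.21 ± 0.10 (adjusted p = 0.123, limma-voom), with a 95% interval from -0.43 to 0.01. With the library number as a block it did not pass on all libraries (adjusted p = 0.0909, limma-voom), but it passed when the block was fitted on the WT and DGCR8 KO libraries alone, a setting added after the data were seen (-0.23, adjusted p = 0.0274, limma-voom). Between the knockouts (DGCR8 KO minus DDX6 KO) the value was -0.71 ± 0.10 (adjusted p = 1.20e-05, limma-voom).

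*Tet1* (ENSMUSG00000047146, chr10:62804570-62899118, minus strand) was at 614, 703 and 884 CPM in WT and at 976, 1068 and 1131 CPM in DGCR8 KO. It was at 776 and 1085 CPM in DDX6 KO clone 1 and at 735 and 998 CPM in clone 2. DGCR8 KO was above WT in all libraries, and DDX6 KO overlapped both. *Tet1* rose by 0.52 ± 0.14 on the log2 scale in DGCR8 KO (adjusted p = 0.00696, limma-voom), and this held under all 21 alternative settings. In DDX6 KO the value was 0.28 ± 0.13 (adjusted p = 0.117, limma-voom), with a 95% interval from -0.003 to 0.56. It passed under 4 of 22 alternative settings (total counts, the block, and without WT replicate 3 or DDX6 KO clone 2 replicate 1), and its adjusted p ran from 0.00208 to 0.929 over all of them. Its value was 0.39 with total counts and 0.02 without the libraries numbered 2. The knockouts differed by 0.25 ± 0.13 (adjusted p = 0.132, limma-voom), so a difference between the knockouts was not shown for *Tet1*.

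The summed CPM of the *Tet* genes was 1062 ± 152 (SD, n = 3) in WT, 1349 ± 58.3 (n = 3) in DGCR8 KO and 1395 ± 181 (n = 4) in DDX6 KO. The sums of the knockouts overlapped, while their make-up differed. *Tet1* gave 68.8% ± 3.47 of the sum in WT, 78.4% ± 2.44 in DGCR8 KO and 64.1% ± 4.15 in DDX6 KO. *Tet2* gave 29.3% ± 2.93, 19.9% ± 2.05 and 31.6% ± 3.42 in the same order. *Tet3* was a small part throughout, at 1.88% ± 0.544 in WT, 1.76% ± 0.534 in DGCR8 KO and 4.30% ± 0.797 in DDX6 KO.

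**Figure D4:**
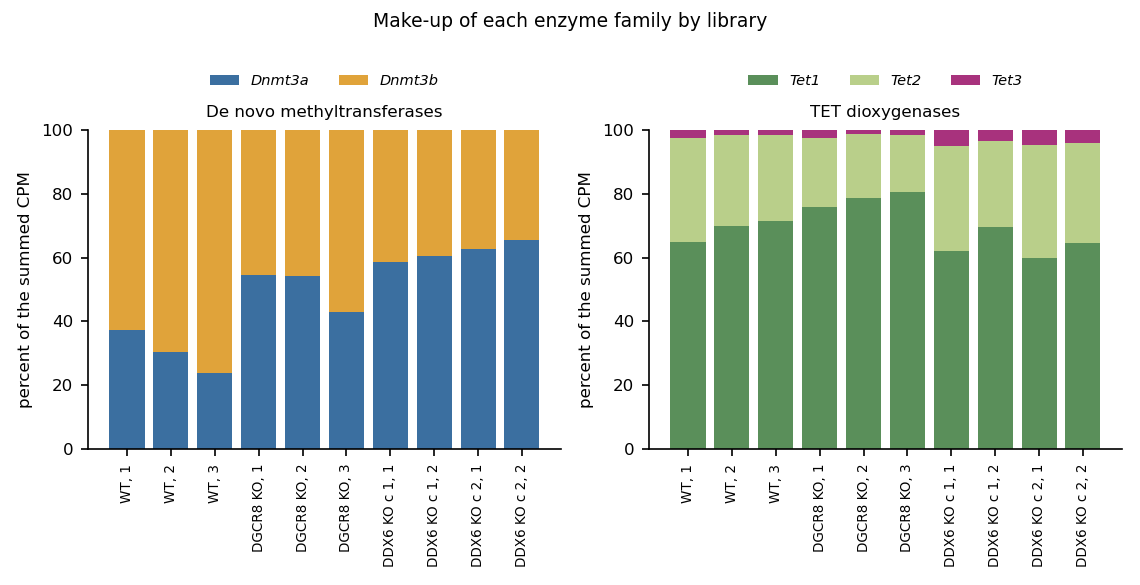
Make-up of each enzyme family in every library, as percent of the summed CPM. Left, *Dnmt3a* and *Dnmt3b*: the *Dnmt3a* share is at most 37.4% in WT and at least 43.0% in every knockout library. Right, *Tet1*, *Tet2* and *Tet3*: *Tet1* is at 75.8% to 80.7% in DGCR8 KO and at most 71.6% in the other libraries.

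*Tdg* (ENSMUSG00000034674, chr10:82629828-82650799, plus strand) was the least counted of the 9 genes, with 6 to 23 counts per library. It was at 5.76, 4.09 and 5.13 CPM in WT and at 2.45, 5.09 and 2.44 CPM in DGCR8 KO. It was at 4.76 and 3.13 CPM in DDX6 KO clone 1 and at 5.63 and 2.80 CPM in clone 2. The groups overlapped, and a difference was not detectable at this depth in DGCR8 KO (95% interval of the log2 fold change from -1.49 to 0.27) or in DDX6 KO (from -1.10 to 0.42). In the annotated transcript of *Tdg*, 57.1% of 50-base windows also occurred in transcripts of other genes, among them *Gm9855* and *Tdg-ps*, although none of the last 400 bases did. The reads were 50 bases long and only unique alignments were counted, so reads from the shared part may be lost. How many reads came from outside the last 400 bases was not measured. The low counts by themselves leave the *Tdg* level uncertain. *Gm9855* itself had 1 to 18 counts per library.

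**Figure D5:**
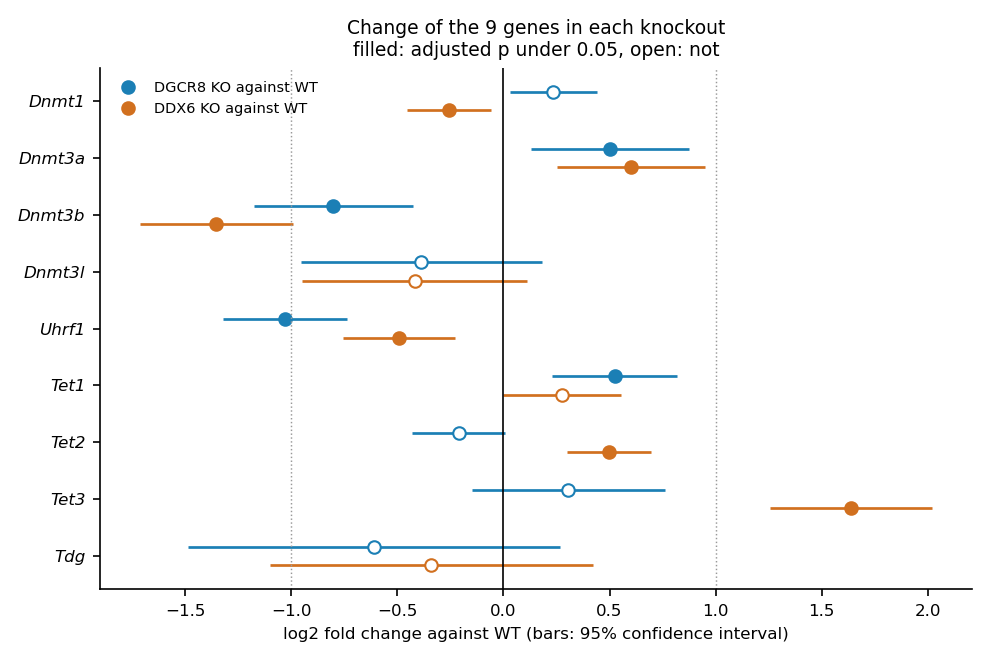
Log2 fold change against WT (x axis) of each gene in DGCR8 KO and DDX6 KO, with 95% confidence intervals from limma-voom, filled where the adjusted p was below 0.05. Dotted lines mark a 2-fold change, which *Uhrf1* passed in DGCR8 KO and *Dnmt3b* and *Tet3* passed in DDX6 KO.

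Compared directly, DGCR8 KO and DDX6 KO differed past the test for 5 of the 9 genes, against 44.0% of all genes tested (23.0% higher, 21.0% lower), and 1, *Tet3*, was beyond 2-fold (17.1% of all). Their libraries did not overlap for 4 of the 9 genes (45.8% of all). *Dnmt1* and *Dnmt3b* were higher in DGCR8 KO, and *Uhrf1*, *Tet2* and *Tet3* were lower. In a fit of all 10 libraries with the clones as separate groups, clone 1 had 3 of the 9 genes past the test against WT (23.8% of all) and clone 2 had 6 of the 9 (24.6%). *Dnmt3b*, *Tet2* and *Tet3* passed in both clones, and *Dnmt1*, *Dnmt3a* and *Uhrf1* passed in clone 2, where their log2 fold changes were -0.32, 0.68 and -0.57, beside -0.20, 0.52 and -0.41 in clone 1. The *Dnmt1* call in clone 2 was narrow (adjusted p = 0.0487, limma-voom). The DDX6 KO clones did not differ past the test for any of the 9 genes (limma-voom, 0 of 9, and 0 at an unadjusted p below 0.05), with 0.0428% of all genes called and 2.43% at that unadjusted p. The largest 95% intervals of the clone 2 against clone 1 difference, apart from that of *Tdg*, were those of *Dnmt3l* (from -0.64 to 0.84) and *Dnmt3b* (from -0.65 to 0.43), so differences within these intervals could not be shown with 2 libraries per clone.

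For the 3 genes with the smallest p over the genotypes, the genes with the most similar pattern were looked up by Pearson's r of log2 CPM over the 10 libraries, among the 8632 tested genes that averaged 10 CPM or more. For *Tet3* they were *Zfp871* (r = 0.98), *Nrxn2* (r = 0.97) and *Rpl10l* (r = 0.97), none of them on chromosome 6. For *Dnmt3b* they were *Tsn* (r = 0.99), *Wtip* (r = 0.97) and *Emc8* (r = 0.97), the last on chromosome 8. For *Tet2* they were *Zfp398* (r = 0.98), which is on chromosome 6, *Ankrd49* (r = 0.98) and *Jade1* (r = 0.97). The points share genotype, so these values mainly order genes by how they differ between genotypes. Among the 9 genes, the highest values were between *Tet2* and *Tet3* (r = 0.87), and the lowest between *Dnmt1* and *Tet2* (r = -0.91).

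Of 9 genes in the families of methyl-CpG binding proteins, 4 rose, none fell and 5 did not pass in DGCR8 KO. Their median log2 fold change was 0.80, and 36.3% of all genes passed. In DDX6 KO 3 rose and 1 fell (median 0.35), where 34.5% of all genes passed. *Zbtb38*, a zinc finger protein that binds methylated DNA, rose by 1.22 ± 0.13 (adjusted p = 6.71e-07, limma-voom) in DGCR8 KO and by 0.34 ± 0.12 (adjusted p = 0.0382, limma-voom) in DDX6 KO. *Mbd2* rose by 1.02 in DGCR8 KO, and its value in DDX6 KO was 0.38 (not past the test). *Mbd3*, a subunit of the NuRD complex, fell by 0.88 ± 0.15 in DDX6 KO (adjusted p = 2.82e-04, limma-voom), and its value in DGCR8 KO was -0.05. *Zbtb33* (Kaiso) rose by 1.38 ± 0.26 in DDX6 KO (adjusted p = 6.08e-04, limma-voom).

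Of 14 genes of base excision repair and the GADD45 family, 13 were tested. In DGCR8 KO 2 rose and 2 fell (median 0.33), where 36.3% of all genes passed. In DDX6 KO 2 rose and 4 fell (median -0.12), where 34.5% of all genes passed. *Gadd45a* was at 6.72, 5.45 and 4.24 CPM in WT, 27.6, 50.2 and 33.4 CPM in DGCR8 KO and 15.95 to 25.4 CPM in DDX6 KO. It rose by 2.78 ± 0.34 in DGCR8 KO (adjusted p = 5.79e-06, limma-voom) and by 2.01 ± 0.34 in DDX6 KO (adjusted p = 2.44e-04, limma-voom), and like *Tet3* it is on chromosome 6. *Ung*, a uracil DNA glycosylase, fell by 0.88 in DGCR8 KO and by 0.78 in DDX6 KO. *Apex1*, the main abasic site endonuclease, rose by 0.35 in DGCR8 KO and fell by 0.57 in DDX6 KO. *Polb*, the gap-filling polymerase, fell by 0.73 in DGCR8 KO, where its chromosome 8 had the median of -0.45.

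Of 18 proteins that guide, recruit or protect DNA methylation, 3 rose and 4 fell in DGCR8 KO (median 0.01). Of all genes tested, 19.9% rose and 16.5% fell there. In DDX6 KO 1 rose and 9 fell (median -0.21), beside 17.9% and 16.6% of all genes tested. *Hells*, a chromatin remodeler needed for DNA methylation, fell by 0.86 ± 0.10 in DGCR8 KO (adjusted p = 3.54e-06, limma-voom) and by 0.39 ± 0.09 in DDX6 KO (adjusted p = 0.00307, limma-voom). Its partner *Cdca7* fell by 0.48 in DGCR8 KO and by 0.97 in DDX6 KO. *Atrx* and *Trim28* fell by 0.84 and 0.72 in DDX6 KO, with values of -0.02 and -0.29 in DGCR8 KO that did not pass. *Nsd1*, a histone H3 lysine methyltransferase, rose by 0.67 in DGCR8 KO. *Dppa3* (Stella), which binds UHRF1 and counters maintenance methylation, was at 12.96, 16.4 and 13.4 CPM in WT. It was at 1.84, 6.45 and 1.63 CPM in DGCR8 KO, with as few as 4 counts in a library. In DDX6 KO it was at 5.13 and 5.22 CPM in clone 1 and at 1.76 and 2.24 CPM in clone 2, so the clones did not overlap. It fell by 2.29 ± 0.45 in DGCR8 KO (adjusted p = 6.33e-04, limma-voom) and by 2.11 ± 0.38 in DDX6 KO (adjusted p = 3.59e-04, limma-voom), against the upward shift of its chromosome 6 there.

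Among 10 regulators of *Dnmt3* or *Tet* expression and TET activity, 9 were tested. In DGCR8 KO 1 rose and 3 fell (median -0.06), where 36.3% of all genes passed. In DDX6 KO 2 rose and 3 fell (median -0.01), where 34.5% of all genes passed. *Rbl2*, a pocket protein known as a miR-290 target and a repressor of de novo methyltransferase genes in ESCs without Dicer, was at 3.84, 6.47 and 6.02 CPM in WT. It was at 24.5, 18.7 and 20.0 CPM in DGCR8 KO and at 10.4 to 16.5 CPM in DDX6 KO, with no overlap between the 3 genotypes, and its chromosome 8 had a median of -0.45 in DGCR8 KO. *Rbl2* rose by 1.89 ± 0.29 in DGCR8 KO (adjusted p = 6.76e-05, limma-voom) and by 1.23 ± 0.30 in DDX6 KO (adjusted p = 0.00359, limma-voom). It was higher in DGCR8 KO than in DDX6 KO by 0.65 ± 0.21 (adjusted p = 0.0177, limma-voom). *Prdm14*, a naive pluripotency factor that represses *Dnmt3b* and *Dnmt3l*, was at 11.2 to 17.0 CPM in WT, with values of 0.51 ± 0.23 in DGCR8 KO (adjusted p = 0.0976, limma-voom) and -0.01 ± 0.23 in DDX6 KO (95% interval from -0.50 to 0.48). *Lin28a*, an RNA-binding protein that has been linked to TET1, fell by 4.55 in DGCR8 KO and by 1.74 in DDX6 KO. *Sall4*, which binds oxidized methylcytosine, fell by 0.61 and 1.03.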

How the data were processed

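Expression was measured with QuantSeq 3′ FWD in 10 mouse ESC libraries, grouped by title. The authors trimmed single-end 50-base reads (cutadapt 1.14), aligned them to mm10 with STAR 2.5.3a, kept unique alignments, and deposited whole-number counts per gene from featureCounts 1.5.3 (sense strand, Gencode M14). No molecular identifiers are stated, so limits from counts cover counting error only. The 92 ERCC rows were set apart.

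The test was run on genes that reached 3 CPM in 3 or more libraries (11683 of 24468 with a count, holding 99.4% to 99.6% of counts). Counts were TMM-scaled and fitted with limma-voom (limma 3.58.1, edgeR 4.0.16, R 4.3.3), genotype being the only term, with a second fit for the 4 groups. Tests were two-sided. The same code was tested on simulated data. The labels do not say whether libraries are separate cultures, so p-values measure the spread between libraries, which may be technical, and the study's 2 DDX6 KO clones entered as 4 libraries. Deviations of same-numbered WT and DGCR8 KO libraries correlated at 0.14, 0.27 and 0.28. All 6 libraries matched best their own number, but this takes each of the 3 pairs from both sides. Deviations were also centered within each group of 3, so the matches are not independent and do not test the pairing. The pairing comes from these correlations, not from the labels. No DDX6 KO library is numbered 3. The block is given where it changed a call and beside some other results.

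Sequences and 3′ UTRs came from Gencode M21 (GRCm38, 1 main transcript per gene) and RefSeq. The 9 genes, lists, tests and rules were chosen with earlier results of these data known. The rule named all 9 genes, the 3 genes of each list with the smallest adjusted p in each knockout, *Rbl2*, *Prdm14*, *Dppa3*, the targeted genes, and for the 3 genes with the smallest p the 3 most correlated genes. A gene that this rule names is not reported here. Marker genes are given as a check of the cells and beside *Dnmt3b*, whether or not they moved with it. *Cdt1* is named for its chromosome. Alternatives were other scalings, filters, tools (DESeq2 1.42.0), single libraries left out, the block and each clone alone.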

Additional observations from a re-analysis of the deposited data

Results flagged for a closer look

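The effects of the 2 knockouts differed by a direct test (DGCR8 KO against DDX6 KO, limma-voom, adjusted p below 0.05) for 5 genes. The log2 differences were 0.49 for *Dnmt1*, 0.55 for *Dnmt3b*, -0.54 for *Uhrf1*, -0.71 for *Tet2* and -1.33 for *Tet3*. For *Tet3* the median of all chromosome 6 genes in the same contrast was -0.52. No library stood apart in the 4 DDX6 KO libraries for any of the 9 genes by Dixon's test, and groups of 3 were not tested.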

How the results depend on the processing

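Of the 15 results of single genes past the test, all 15 kept their direction under every alternative run and 10 passed under every one. The exceptions were *Dnmt1*, *Dnmt3a* and *Uhrf1* in DDX6 KO, *Dnmt3a* in DGCR8 KO and *Dnmt3b* between the knockouts. With clone 1 as the only DDX6 KO libraries, 3 of the 9 genes passed against WT instead of 6 (22.4% of all genes tested), and fewer libraries entered that fit. With the replicate block on the WT and DGCR8 KO libraries alone, added after the data were seen, 7 passed instead of 4 (45.3% of all genes tested against 36.3%), the genes gained being *Dnmt1*, *Dnmt3l* and *Tet2*. The replicate block on all libraries gave 6 in DGCR8 KO, 6 in DDX6 KO and 5 between the knockouts. In DDX6 KO the block brought *Tet1* past the test (adjusted p = 0.00208, limma-voom) and lost the call of *Dnmt1* (adjusted p = 0.0658, limma-voom). Same-numbered WT and DDX6 KO libraries correlated at 0.16 and 0.15 for number 1 and at 0.07 and 0.01 for number 2. The WT and DGCR8 KO libraries numbered 1 correlated at 0.14. Whether the DDX6 KO libraries are paired with WT by number is not given by the labels. Leaving out 1 library gave 3 to 4 genes in DGCR8 KO, 4 to 6 in DDX6 KO and 4 to 5 between the knockouts.

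*Dnmt3l* turned from -0.39 to 0.04 in DGCR8 KO without DGCR8 KO replicate 2, and was -0.72 without replicate 1. Between the knockouts its value of 0.03 became -0.09 with total counts, -0.03 with TMM without chromosomes 6 and 8, -0.31 and -0.06 without DGCR8 KO replicates 1 and 3, -0.08 and -0.06 without replicate 2 of clone 1 and of clone 2, -0.07 with the replicate block and -0.04 with clone 2 alone, and it was 0.46 without DGCR8 KO replicate 2. *Tdg* between the clones turned from -0.01 to 0.01 with total counts. None of these passed the test, and the cause was not tested. Scaling by total counts moved the median of all genes from 0.02 to 0.15 in DDX6 KO and from 0.00 to -0.13 between the knockouts, and the share of calls that were higher from 51.8% to 67.5% and from 52.3% to 38.8%. The *Tdg* counts (6 to 23) limit what could be seen for that gene, and *Tdg* was left out by the filter of 10 CPM.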

Other observations

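Of 16 enzymes that supply S-adenosylmethionine and alpha-ketoglutarate, the substrates of methylation and demethylation, 5 rose, 6 fell and 5 did not pass in DGCR8 KO (median log2 fold change -0.10), where 36.3% of all genes passed. In DDX6 KO 3 rose, 6 fell and 7 did not pass (median -0.16), where 34.5% of all genes passed. *Idh1*, the cytosolic isocitrate dehydrogenase that makes alpha-ketoglutarate, was at 223, 245 and 232 CPM in WT, 69.2, 99.1 and 80.6 CPM in DGCR8 KO and 96.3 to 125 CPM in DDX6 KO. It fell by 1.51 ± 0.14 in DGCR8 KO (adjusted p = 1.93e-07, limma-voom) and by 1.08 ± 0.12 in DDX6 KO (adjusted p = 4.13e-06, limma-voom). *Got1*, a cytosolic aminotransferase, fell by 0.98 and 0.89. *Mtr*, methionine synthase, rose by 1.07 in DGCR8 KO and had a value of -0.15 in DDX6 KO that did not pass. *Shmt1*, a serine hydroxymethyltransferase, fell in both knockouts, by 0.93 in DDX6 KO.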
